A study of Mus musculus with 12 samples.

Results

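The response of wild-type CD4 T cells, described as naive, to 24 h of stimulation through CD3 and CD28 was measured. For this, 2 arrays of cells stimulated for 24 h (WT 24 h) were set against 2 arrays of unstimulated cells (WT 0 h). These 4 arrays were chosen by their titles from the 12 one-colour arrays of the series, and 23410 of the 28853 probe sets on each array, those with a gene symbol, were tested. The cells came from C57BL/6 mice and were grown in RPMI with fetal calf serum. For WT 24 h, plates bore a goat antibody against hamster antibodies, and soluble anti-CD3 was used at 0.25 ug/mL together with soluble anti-CD28 at 0.5 ug/mL; WT 0 h cells received no stimulation. Groups used for context were WT cells after 6 h of the same stimulation (WT 6 h) and, at 24 h and 0 h, cells of PP2Ac transgenic mice, PP2Ac being the subunit with the catalytic site in protein phosphatase 2A. The labels name neither the promoter of that transgene nor the line, and in 1 field they call the WT mice transgenic as well; the genotype was taken from the titles. Each group had 2 arrays, of which 1 has the mark Rep in its title. Nothing in the labels tells whether both arrays of a group had mice or cultures of their own. The p-values thus reflect only how far these samples spread, which may be technical. This spread was pooled over all 12 arrays, so it also comes from the transgenic pairs. Values are given with the unmarked array first and the array marked Rep second. The main fit had no term for this mark, and the alternative fit called the replicate block below had one.

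A naive T cell is a resting cell with little cytoplasm and low rates of synthesis. When its antigen receptor and the costimulatory receptor CD28 are engaged together, it turns on immediate early transcription factors, secretes cytokines such as interleukin 2, builds ribosomes and metabolic enzymes, and then enters the cell cycle. Genes that hold the cell at rest, guide its recirculation through lymph nodes or damp its receptors are known to be turned down in the same period.

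Replicate arrays agreed closely in the whole series, with Pearson's r of 0.9919 to 0.9965 over all probe sets; root mean square differences were 0.305 to 0.334 in WT pairs and 0.22 to 0.268 in transgenic pairs on the log2 scale. The labelled cell type was checked with marker lists. None of 8 CD4 T cell markers passed the test between WT 24 h and WT 0 h (1 with the replicate block). Cd3e, a chain of the T cell receptor complex, read 13.83 and 13.78 at 24 h and 13.86 and 13.84 at 0 h, and Cd4, the coreceptor, read 13.65 and 13.55 at 24 h and 13.73 and 13.74 at 0 h. All 4 arrays lay close together for both genes. At 0 h the 8 naive T cell markers averaged 13.11 and 13.13, and the 11 antigen-experienced T cell markers 10.76 and 10.355. The markers thus do not show that all the cells were naive. Markers of other cells were also present, and those of neutrophils separated the marks. The mean of 17 neutrophil markers was 10.99 on the unmarked and 7.71 on the Rep array of WT 24 h, against 11.999 and 8.55 in WT 0 h. Ngp, a neutrophil granule protein gene, read 13.07 and 8.98 at 24 h against 13.71 and 10.97 at 0 h, so the unmarked arrays were the higher at both times. The 17 monocyte and macrophage markers averaged 10.48 and 8.81 at 24 h against 10.76 and 9.27 at 0 h. In bulk RNA, fewer cells of a type and less RNA per cell cannot be told apart.

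**Figure D1:**
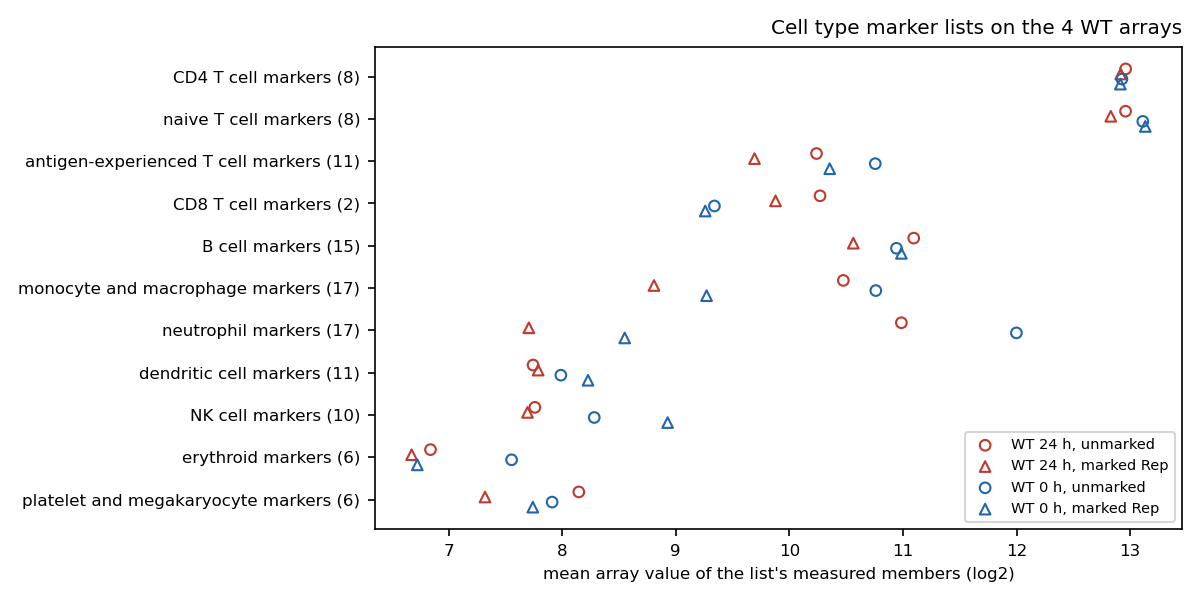
Mean array value (log2, x axis) of each of 11 cell type marker lists (y axis, measured members in parentheses) on the 4 WT arrays; red symbols are WT 24 h and blue symbols WT 0 h, circles the unmarked arrays and triangles those marked Rep. CD4 T cell markers coincide on all 4 arrays, while neutrophil markers range from 7.71 to 11.999 and are higher on the unmarked arrays of both times.

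Between WT 24 h and WT 0 h, 6245 of 23410 probe sets (26.7%) passed the limma test at a Benjamini-Hochberg adjusted p under 0.05. Of these, 3015 (12.9%) were higher and 3230 (13.8%) were lower at 24 h. The larger changes were more often increases: 819 (3.5%) were at least 2-fold higher and 536 (2.29%) at least 2-fold lower, and past 8-fold there were 44 higher (0.188%) and 2 lower (0.00854%). For all 6245 the values of the 2 groups did not overlap, which also held for 60.3% of all probe sets. The number lower fell to 1941 when the WT 0 h array marked Rep was left out, and to 1279 without the 3 WT arrays marked Rep; the number higher was 1591 in that last case. Counted by gene, with 1 probe set for each of 19938 genes, 12.8% were higher and 14.3% lower, and the median difference was -0.03. These shares are the background for the gene lists below, each of which is described by its counts and its median without a test of the list.

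The largest increase was in Lag3, which encodes an inhibitory receptor that binds MHC class II. It read 12.31 and 12.32 at 24 h against 7.74 and 7.85 at 0 h, a difference of 4.52 ± 0.18 (SE of the fit, n = 2 arrays per group, adjusted p = 9.46e-06) or 23-fold. Both stimulated arrays stood far above both resting arrays. Chek1, a checkpoint kinase of DNA replication, read 11.27 and 11.53 against 6.99 and 6.99, a difference of 4.41 ± 0.18. Pros1, which encodes protein S, a vitamin K-dependent plasma protein that T cells also make, read 11.10 and 11.84 against 7.01 and 7.17, and Dtl, a substrate receptor of the ubiquitin ligase that removes the licensing factor Cdt1, read 11.69 and 11.74 against 7.87 and 7.39. In each of these genes the gap between groups was several times the spread within them. Il2, the growth factor of activated T cells, read 8.73 and 10.50 against 5.35 and 5.90, a difference of 3.99 ± 0.55 (adjusted p = 0.000878). The 2 stimulated arrays differed from each other by more than in the genes above, and the resting mean lay under 5.81, the lower quartile of every array. Resting values of Orc1, the largest subunit of the origin recognition complex, and of Ccdc141, which encodes a coiled-coil protein, also lay in that dim range.

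The other genes among the 20 largest increases are given here singly. Ccl22, a chemokine that attracts cells with the receptor CCR4, was higher by 3.92 ± 0.48, and Ccr4 itself by 3.47 ± 0.22. Lif, a cytokine of the interleukin 6 family, was higher by 3.84 ± 0.27 and Socs2, a feedback inhibitor of cytokine receptors, by 3.65 ± 0.29. Il12rb1, a chain of the receptors of interleukin 12 and 23, rose by 3.40 ± 0.22. Bcat1, which transaminates branched-chain amino acids in the cytosol, rose by 3.79 ± 0.55, Dctd, which makes dUMP for thymidylate synthesis, by 3.73 ± 0.11 and Ak4, a mitochondrial adenylate kinase, by 3.48 ± 0.35. Hells, a chromatin remodeller needed for DNA methylation, Uhrf1, which recruits the maintenance methyltransferase, and Pclaf, a partner of the replication clamp, rose by 3.72, 3.38 and 3.65. Akr1c18, a steroid dehydrogenase, and Itih5, which encodes a hyaluronan-binding protein, completed the 20 with 3.68 and 3.39. Each gene was read at its probe set of the largest difference. For Pclaf and Ccdc141 another probe set had a higher mean, and its values are not given here.

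The largest decrease was in Rgs2, which speeds the switching-off of G proteins. It read 8.97 and 8.08 at 24 h against 11.78 and 11.85 at 0 h, a difference of -3.29 ± 0.30 (adjusted p = 0.000133), with both resting arrays well above both stimulated ones. Tdrp, known for its part in sperm formation, read 9.09 and 8.58 against 11.75 and 12.12. Heatr5a, which encodes a HEAT repeat protein, read 10.13 and 9.89 against 12.48 and 12.74. The 20 largest decreases, described here singly, included the cholesterol exporter Abca1 (-2.54 ± 0.33), the drug efflux pump Abcb1a (-2.44 ± 0.28), the phospholipid flippase Atp8b4 (-2.28 ± 0.27) and the phosphoinositide phosphatase-like Mtmr10 (-2.32 ± 0.20). They also included Pde2a, which breaks down cyclic nucleotides (-2.56 ± 0.40), Ramp3, an accessory protein of calcitonin-type receptors (-2.77 ± 0.37), the small GTPase Rhob (-2.37 ± 0.25) and Il18r1, a chain of the interleukin 18 receptor (-2.41 ± 0.28). Klrd1, the NK receptor chain CD94 (-2.41 ± 0.39), and Cd209a, a lectin of dendritic cells (-2.68 ± 0.46), are markers of other cells as well as listed genes. The other genes among the 20 were Trf, the iron carrier transferrin, the monooxygenase Cyp2s1, the RNA-binding gene Mex3b, the RING finger genes Rnf32 and Siah3, the sorting factor Vps37b and the nuclear receptor Nr4a2, with differences from -2.82 to -2.27.

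**Figure D2:**
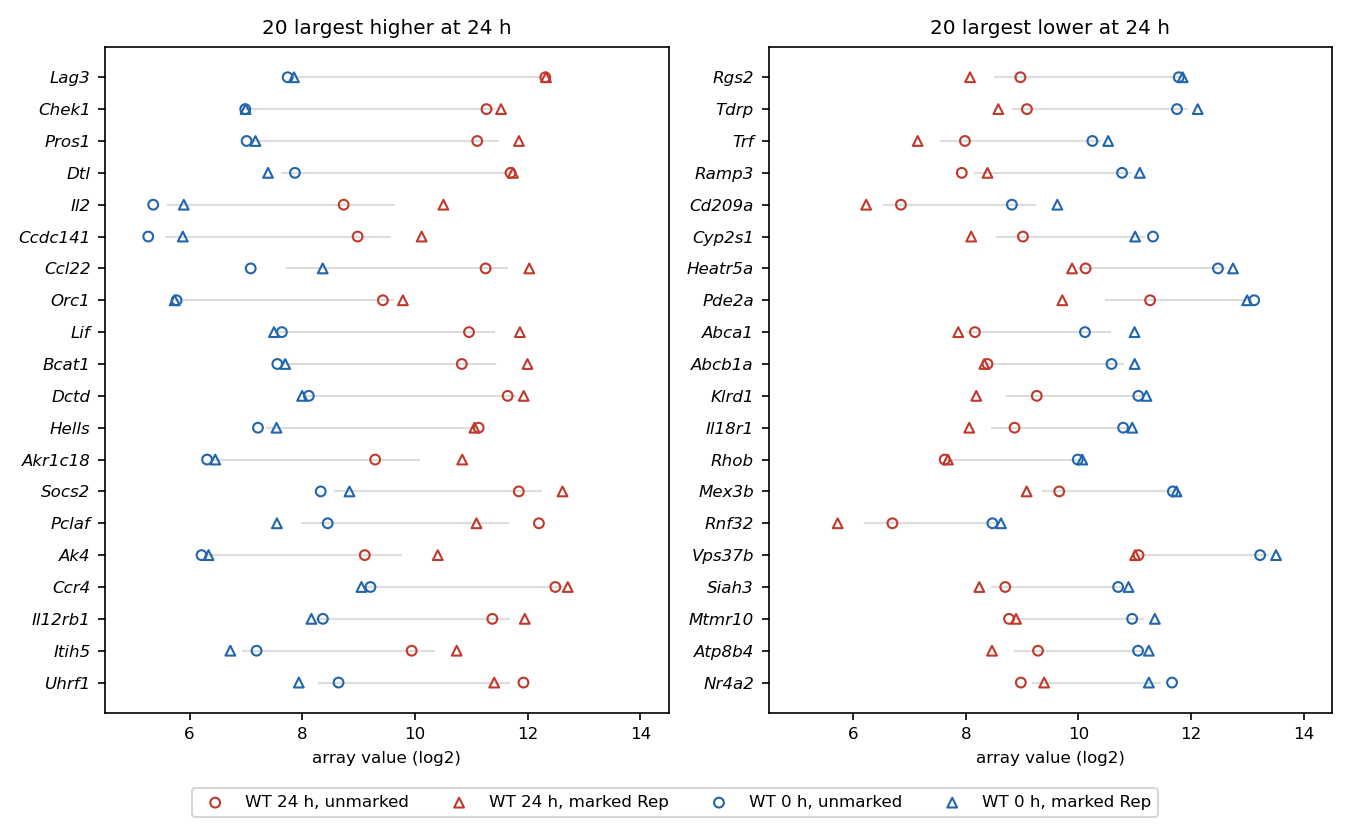
Array values (log2, x axis) of the 20 genes with the largest increase (left) and the 20 with the largest decrease (right) between WT 24 h (red) and WT 0 h (blue); circles are unmarked arrays, triangles arrays marked Rep, and a grey line joins the group means. Lag3 has the widest gap on the left and Rgs2 on the right, and the groups do not overlap for any of the 40 genes.

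Transcription factors of early activation were partly higher and partly lower after 24 h. Of 32 measured, 10 were higher and 4 lower, with a median of 0.24. Irf4, which sets the strength of the effector programme, read 13.06 and 13.57 at 24 h against 10.99 and 10.76 at 0 h (2.44 ± 0.18, adjusted p = 6.5e-05). Tbx21, the T helper 1 factor T-bet, read 11.65 and 12.53 against 9.35 and 9.52. Both factors stood above their resting level on each stimulated array. Of the EGR genes, induced by the antigen receptor, 3 were higher, Egr1 by 1.99 ± 0.17, Egr2 by 1.72 ± 0.17 and Egr3 by 2.03 ± 0.16, while Egr4 did not pass (0.045). Fosl2 and Fosb, both subunits of AP-1, fell by 1.75 and 1.65, and the orphan receptor Nr4a2 read 8.98 and 9.39 against 11.66 and 11.25. Fos (0.35 ± 0.21, adjusted p = 0.282) and Nr4a1 (0.31 ± 0.16, adjusted p = 0.196) did not pass.

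Of 35 cytokines and chemokines measured, 16 were higher, 3 lower (1 without the 3 WT arrays marked Rep) and 16 did not pass, with a median of 0.85. Tnf read 11.89 and 12.35 at 24 h against 10.19 and 9.79 at 0 h, Il4 read 7.95 and 8.16 against 6.81 and 6.77, and Ifng, the T helper 1 cytokine, read 9.69 and 11.001 against 7.37 and 8.01. Each stimulated array was above each resting array, and for Ifng, as for Il2, the array marked Rep was the higher of its pair. Mif, a cytokine that resting cells also store, rose by 1.44 ± 0.15, and the chemokine Ccl1 by 1.53 ± 0.20. Ccl5, a chemokine of memory and cytotoxic cells, went the other way, with 12.07 and 11.58 against 13.13 and 13.06 (-1.27 ± 0.15). Of 12 genes of cytokine feedback and PIM kinases, 6 were higher and 1, Socs6, was lower, a call that ended without either Rep array of the pair. Cish rose by 2.18 ± 0.21, Socs1 by 1.60 ± 0.17, and the survival kinase gene Pim2 by 1.43 ± 0.20.

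Among 29 interleukin and interferon receptors, 4 were higher and 10 lower, with a median of -0.15. The 4 were Il2ra and Il2rb, which make the interleukin 2 receptor sensitive to its ligand, Il12rb1 and Il15ra. Il2ra read 13.33 and 13.76 against 10.93 and 10.00, Il2rb 13.30 and 13.36 against 12.02 and 11.99. Il7r, which carries the survival signal of naive cells, read 12.59 and 11.76 at 24 h against 14.22 and 14.24 at 0 h, a difference of -2.06 ± 0.35 (adjusted p = 0.0025). Ifngr1 fell by 1.83, Il17ra by 0.79 and Tgfbr2 by 1.08. Without the 3 WT arrays marked Rep the number lower was 5.

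Costimulatory receptors and TNF ligands had 8 of 31 higher and 3 lower (5 and 1 without the 3 WT arrays marked Rep), with a median of 0.26. Tnfsf4, the ligand OX40L, rose by 2.58 ± 0.20 and its receptor gene Tnfrsf4 by 1.14 ± 0.16. Tnfrsf9, the receptor 4-1BB, rose by 1.501 ± 0.186 and its ligand gene Tnfsf9 by 1.14 ± 0.14. Icos rose by 0.996 ± 0.132, while Cd28 did not pass (0.10 ± 0.08, adjusted p = 0.391). Of 18 inhibitory receptors and ligands, 5 were higher and 4 lower, and the number lower was 2 without the unmarked WT 0 h array. Beside Lag3, Cd200 (1.87 ± 0.22), Pdcd1lg2, the ligand PD-L2 (1.81 ± 0.23), and Ctla4 (0.98 ± 0.15) rose, whereas Vsir, which encodes VISTA (-1.16 ± 0.12), and Tigit (-0.96 ± 0.16) fell. Pdcd1, which encodes PD-1, read 10.78 and 10.18 against 11.37 and 10.84 and did not pass (adjusted p = 0.0575; 0.013 with the replicate block).

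Signalling parts at and below the antigen receptor moved in both directions. Of 26 genes of the receptor complex and its proximal kinases and adaptors, 4 were higher and 8 lower with a median of -0.17, and with any 1 of the 4 arrays left out the counts were 1 or 2 higher and 2 to 5 lower. Txk, a Tec family kinase (-0.97 ± 0.13), and Grap2, an adaptor that binds SLP-76 (-0.89 ± 0.13), fell, and Malt1, the protease of the NF-kB branch (0.77 ± 0.12), rose. Of 34 intracellular brakes, 8 were higher and 10 lower (6 without the 3 WT arrays marked Rep). The tyrosine phosphatase Ptpn7 (1.25 ± 0.10) and the ERK inhibitor Spry1 (1.34 ± 0.17) were higher, and the adaptor Sla2 (-1.57 ± 0.13), the MAP kinase phosphatase Dusp1 (-1.27 ± 0.12) and Tnfaip3, the NF-kB inhibitor A20 (-1.19 ± 0.14), were lower. Among 21 genes of calcium entry and potassium channels, 2 were higher and 7 lower (4 without the 3 WT arrays marked Rep). Of the calcineurin catalytic subunits, Ppp3cc rose by 1.16 ± 0.11 and Ppp3ca fell by 1.19, and the calcium channel gene Orai2 fell by 1.44. Genes of the TGF-beta receptor and SMAD pathway had 0 of 21 higher and 13 lower, with a median of -0.52; Smad7, the inhibitory SMAD, read 10.79 and 10.64 against 12.14 and 12.33, and Smad4 fell by 0.87.

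The gene of the transgenic protein in the companion mice, Ppp2ca, did not pass in WT cells (13.24 and 13.18 at 24 h against 13.15 and 13.16 at 0 h, adjusted p = 0.667). Of 22 measured PP2A subunits and regulators, 4 were higher and 6 lower with a median of -0.03. Lcmt1, the methyltransferase that modifies the catalytic subunit, rose by 0.65 ± 0.09. The counts of PP2A genes were 2 to 4 higher and 1 to 3 lower with 1 array left out, and 1 and 0 without the 3 WT arrays marked Rep; on the values as deposited and with median centring 2 were lower.

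Genes of the quiescent and naive state were mostly lower, 21 of 34 with 3 higher and a median of -0.53 (-0.53 between the unmarked arrays and -0.56 between those marked Rep). Tob1, an antiproliferative factor, read 10.01 and 9.81 at 24 h against 11.82 and 12.10 at 0 h (-2.05 ± 0.12, adjusted p = 2.82e-05). Btg2, of the same family, read 12.13 and 11.72 against 13.18 and 13.30, and Klf2, which sustains the trafficking receptors of resting cells, read 11.59 and 11.52 against 12.53 and 12.66. Resting arrays were higher in all 3 genes, without overlap. The glucose uptake inhibitor Txnip fell by 1.54 and the cyclin-dependent kinase inhibitor Cdkn1b by 1.25. Lef1 fell by 0.58, and Bach2 did not pass (-0.36 ± 0.13, adjusted p = 0.0779; 0.0083 with the replicate block). The 3 that were higher were Igfbp4, Id3 and Treml2. Igfbp4, an insulin-like growth factor binding protein that marks naive T cells, read 12.63 and 12.84 against 9.72 and 9.25, and Id3, an inhibitor of E proteins, rose by 1.48 ± 0.18.

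Homing, egress and adhesion genes had 12 of 27 lower and 3 higher, with a median of -0.37; the replicate block gave 5 higher. S1pr1, which lets T cells leave lymph nodes, read 12.53 and 12.28 at 24 h against 13.46 and 13.59 at 0 h. The integrin gene Itga4 fell by 1.99, Cxcr4 by 1.70 and Cxcr6 by 1.14, and the 3 higher genes included the chemokine receptors Ccr4 and Ccr8 (3.22 ± 0.40). Ccr7, the lymph node homing receptor, read 13.80 and 13.94 against 14.12 and 14.17 (adjusted p = 0.051; 0.024 with the replicate block). Cd69, an early activation marker, differed by 0.77 ± 0.31 and did not pass without the block but did with it (adjusted p = 0.013), and Cd44 passed in neither fit. Among 8 GIMAP GTPases, lymphocyte survival proteins, 6 were lower and 1, Gimap7, was higher. Most or all of the lower calls ended in some fits with fewer arrays, while the median of -0.42 ranged from -0.48 to -0.36 with 1 array left out. The replicate block also gave 6 lower.

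Helper and regulatory lineage factors had 3 of 25 higher and 5 lower. Beside Tbx21, Gata3 and Ahr were higher; the call of Gata3 ended without any 1 of the 4 arrays, and that of Ahr without either unmarked array or the WT 24 h array marked Rep. Rora fell by 2.16, Stat5b by 0.91 and Ikzf2 by 1.40, and Foxp3 did not pass (10.20 and 9.43 against 11.02 and 10.26, -0.83 ± 0.36, adjusted p = 0.133); both marks differed by about the same amount, and limma with the replicate block gave an adjusted p = 0.00075. Of 15 cytotoxic granule genes, 2 were higher and 2 lower. Gzmb read 11.46 and 11.13 at 24 h against 8.56 and 8.71 at 0 h, and Gzmk read 7.69 and 6.90 against 9.25 and 9.11. With 1 array left out, 1 to 4 of these genes were higher, and 0 without the 3 WT arrays marked Rep; the replicate block gave 4.

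Genes of cell growth are given next, beginning with the MYC network. Myc, which drives ribosome and metabolic genes in activated lymphocytes, read 13.001 and 13.41 at 24 h against 11.56 and 11.01 at 0 h (1.92 ± 0.20, adjusted p = 0.000224). Its partner gene Max rose by 0.57 ± 0.09, and Mxi1 and Mxd4, which compete for MAX, fell by 1.15 and 1.71. Of the 12 genes of this network, 2 were higher and 4 lower (2 without the 3 WT arrays marked Rep).

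Ribosome biogenesis had 56 of 60 genes higher and 0 lower, with a median of 1.02. Dkc1, the pseudouridine synthase of ribosomal RNA, read 11.49 and 11.71 at 24 h against 9.76 and 9.89 at 0 h, and Gnl3, the nucleolar GTPase nucleostemin, read 11.41 and 11.65 against 9.88 and 9.94. Tsr1, a factor of small subunit assembly, read 11.002 and 11.45 against 9.42 and 9.56, a difference of 1.74 ± 0.15. Its promoter is shown because it had the largest difference among called members with an E-box, the letters CACGTG that MYC and MAX are known to bind. The window runs from 250 bases before the start of the gene to 50 after it, at chr11:74897830-74898129 on the plus strand of GRCm38.p6, sequence from RefSeq, with the E-box in capitals.
Tsr1: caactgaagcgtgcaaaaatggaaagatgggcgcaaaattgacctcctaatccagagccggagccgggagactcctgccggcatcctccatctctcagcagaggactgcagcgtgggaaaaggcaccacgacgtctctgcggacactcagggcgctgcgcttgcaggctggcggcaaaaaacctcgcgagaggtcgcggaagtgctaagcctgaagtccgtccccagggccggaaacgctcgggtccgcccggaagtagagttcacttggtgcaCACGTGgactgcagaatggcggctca
Searched on both strands, CACGTG was in the window of 13 of the 54 ribosome biogenesis genes with a promoter (24.1%), against 8.09% of 27025 genes in the RefSeq table. A match is a run of letters and not a measured binding site.

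The cytosolic ribosomal protein genes themselves stayed near their resting level: of 55, 3 were higher and 3 lower with a median of -0.10. The higher count was 1 or 2 with 1 array left out and 0 without the 3 WT arrays marked Rep. The lower count was 0 with any 1 of the 4 arrays left out and 7 with the replicate block, 1 on the values as deposited and 0 with median centring. Of 38 translation initiation factors, 21 were higher (12 without the 3 WT arrays marked Rep), 0 lower, among them the cap-binding gene Eif4e at 10.96 and 11.22 against 10.00 and 9.99. Cytosolic tRNA synthetases had 12 of 18 higher, all 18 with a positive difference, and a median of 0.95; 6 remained past the threshold without the WT 24 h array marked Rep and 7 without the unmarked WT 0 h array. Farsb (1.15 ± 0.10) and Kars (0.97 ± 0.10) charge phenylalanine and lysine tRNAs.

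Genes of the ATF4 response and of serine synthesis had 5 of 19 higher and a median of 1.03, which was 0.09 between the unmarked arrays and 1.57 between those marked Rep; 3 were higher without the WT 24 h array marked Rep or without the unmarked WT 0 h array, and 8 with the replicate block. Psat1, an enzyme of serine synthesis, read 12.23 and 13.06 at 24 h against 9.69 and 10.03 at 0 h, and Shmt2, the mitochondrial serine hydroxymethyltransferase, read 12.61 and 13.25 against 11.16 and 11.24. Amino acid transporters and BCAT enzymes had 8 of 19 higher and 1 lower; 5 were higher without either WT 0 h array. Slc1a5, a glutamine carrier, rose by 0.95 ± 0.15, Slc7a6 by 0.76 ± 0.08, and Slc38a9, a lysosomal arginine sensor, fell by 0.81.

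Nucleotide synthesis and one-carbon metabolism had 31 of 33 genes higher and 1 lower, with a median of 1.55. Shmt1 read 10.68 and 10.72 at 24 h against 7.60 and 7.62 at 0 h, 8.48-fold and with nearly equal replicates (3.08 ± 0.14, adjusted p = 2.04e-05). Mthfd1, which carries the folate one-carbon steps, read 11.85 and 12.03 against 9.49 and 9.43. The pyrimidine gene Cad rose by 1.85 ± 0.10 and the purine genes Pfas and Gart by 2.04 and 1.59. For all of these, the spread between arrays of a group was small against the gap between groups. Ctps2 was the 1 lower gene, a call that ended without either Rep array, while its paralogue Ctps rose by 2.29 ± 0.16.

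In energy metabolism, of 23 genes of glycolysis and lactate export, 16 were higher and 1, Pdk1, lower, with a median of 0.67; 10 were higher without the WT 0 h array marked Rep. Tpi1 read 12.73 and 12.83 against 10.72 and 10.25, Hk2, the inducible hexokinase, read 9.40 and 10.15 against 8.08 and 7.15, and the lactate carrier gene Slc16a1 rose by 1.57 ± 0.14. Pdk1, a kinase that inhibits pyruvate dehydrogenase, fell by 0.68. Of 32 genes of the pentose phosphate pathway and TCA cycle, 17 were higher and 0 lower, or 11 higher without the WT 0 h array marked Rep; Idh3a read 11.61 and 11.65 against 10.18 and 10.18. Oxidative phosphorylation subunits had 58 of 70 higher and 1 lower, with a median of 0.51, and 36 were higher without the WT 24 h array marked Rep. Atp5g1, part of the membrane ring of ATP synthase, rose by 1.31 ± 0.10 and Ndufb6, of complex I, by 1.21 ± 0.10.

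Mitochondrial ribosomal proteins had 59 of 77 higher and 0 lower, with a median of 0.54 and Mrps6 the furthest past the threshold (1.71 ± 0.14). Import and genome maintenance genes had 18 of 32 higher and 1 lower. C1qbp, a matrix protein of mitochondrial translation, read 12.43 and 12.65 against 10.84 and 10.93. Polg2, the accessory subunit of the mitochondrial DNA polymerase, read 9.05 and 8.83 against 10.39 and 10.55 and was the lower member.

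Lipid genes differed in direction between the sterol lists. Sterol synthesis and uptake had 18 of 20 higher and 0 lower with a median of 0.82 (9 higher without the 3 WT arrays marked Rep). Idi1 read 11.33 and 11.73 at 24 h against 9.38 and 9.17 at 0 h, and Cyp51, which removes a methyl group of lanosterol, read 10.80 and 11.30 against 8.97 and 8.89. Sterol efflux genes had 4 of 5 lower and 0 higher, with a median of -1.64. Abca1 read 8.16 and 7.87 against 10.12 and 10.996. Mylip, in this list though it degrades the LDL receptor rather than exporting sterol, read 10.48 and 10.43 against 12.10 and 12.45. Stimulated arrays were thus the higher ones for the named synthesis genes and the lower ones for the named genes of the efflux list. There was no overlap in these 4 genes. Of 15 fatty acid synthesis genes, 6 were higher and 1, Elovl7, lower, a call that ended with any 1 of the 4 arrays left out (3 lower with the replicate block); Acsl5 rose by 1.36 ± 0.10 and Fasn by 0.64 ± 0.08. A canonical sterol response element, searched on both strands, was in 0 of 16 sterol gene promoters and in 0.27% of all genes, which says only that these letters are not in the windows.

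Protein folding and turnover were described by 3 lists. ER chaperones had 14 of 20 higher and 0 lower, and 7 to 9 without the WT 24 h array marked Rep or either WT 0 h array; Sdf2l1 rose by 2.08 ± 0.34 and Hspa5, the main ER chaperone, by 0.56 ± 0.08. Cytosolic and mitochondrial chaperones had 20 of 24 higher and 1 lower, with Hspd1, the mitochondrial chaperonin, at 12.79 and 12.97 against 10.88 and 10.89. Proteasome subunits had 39 of 42 higher and 0 lower with a median of 0.57, and 25 were higher without the WT 24 h array marked Rep. Splicing factors had 24 of 38 higher (11 without the 3 WT arrays marked Rep) and 4 lower, and the 4 became 0 or 1 with any 1 array left out. Autophagy and lysosome genes had 2 of 39 higher and 11 lower, with 6 or 7 lower without either WT 0 h array or the WT 24 h array marked Rep, and 17 lower and 4 higher with the replicate block. Ulk1, the kinase that starts autophagy, read 10.38 and 10.46 against 11.60 and 11.58.

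**Figure D3:**
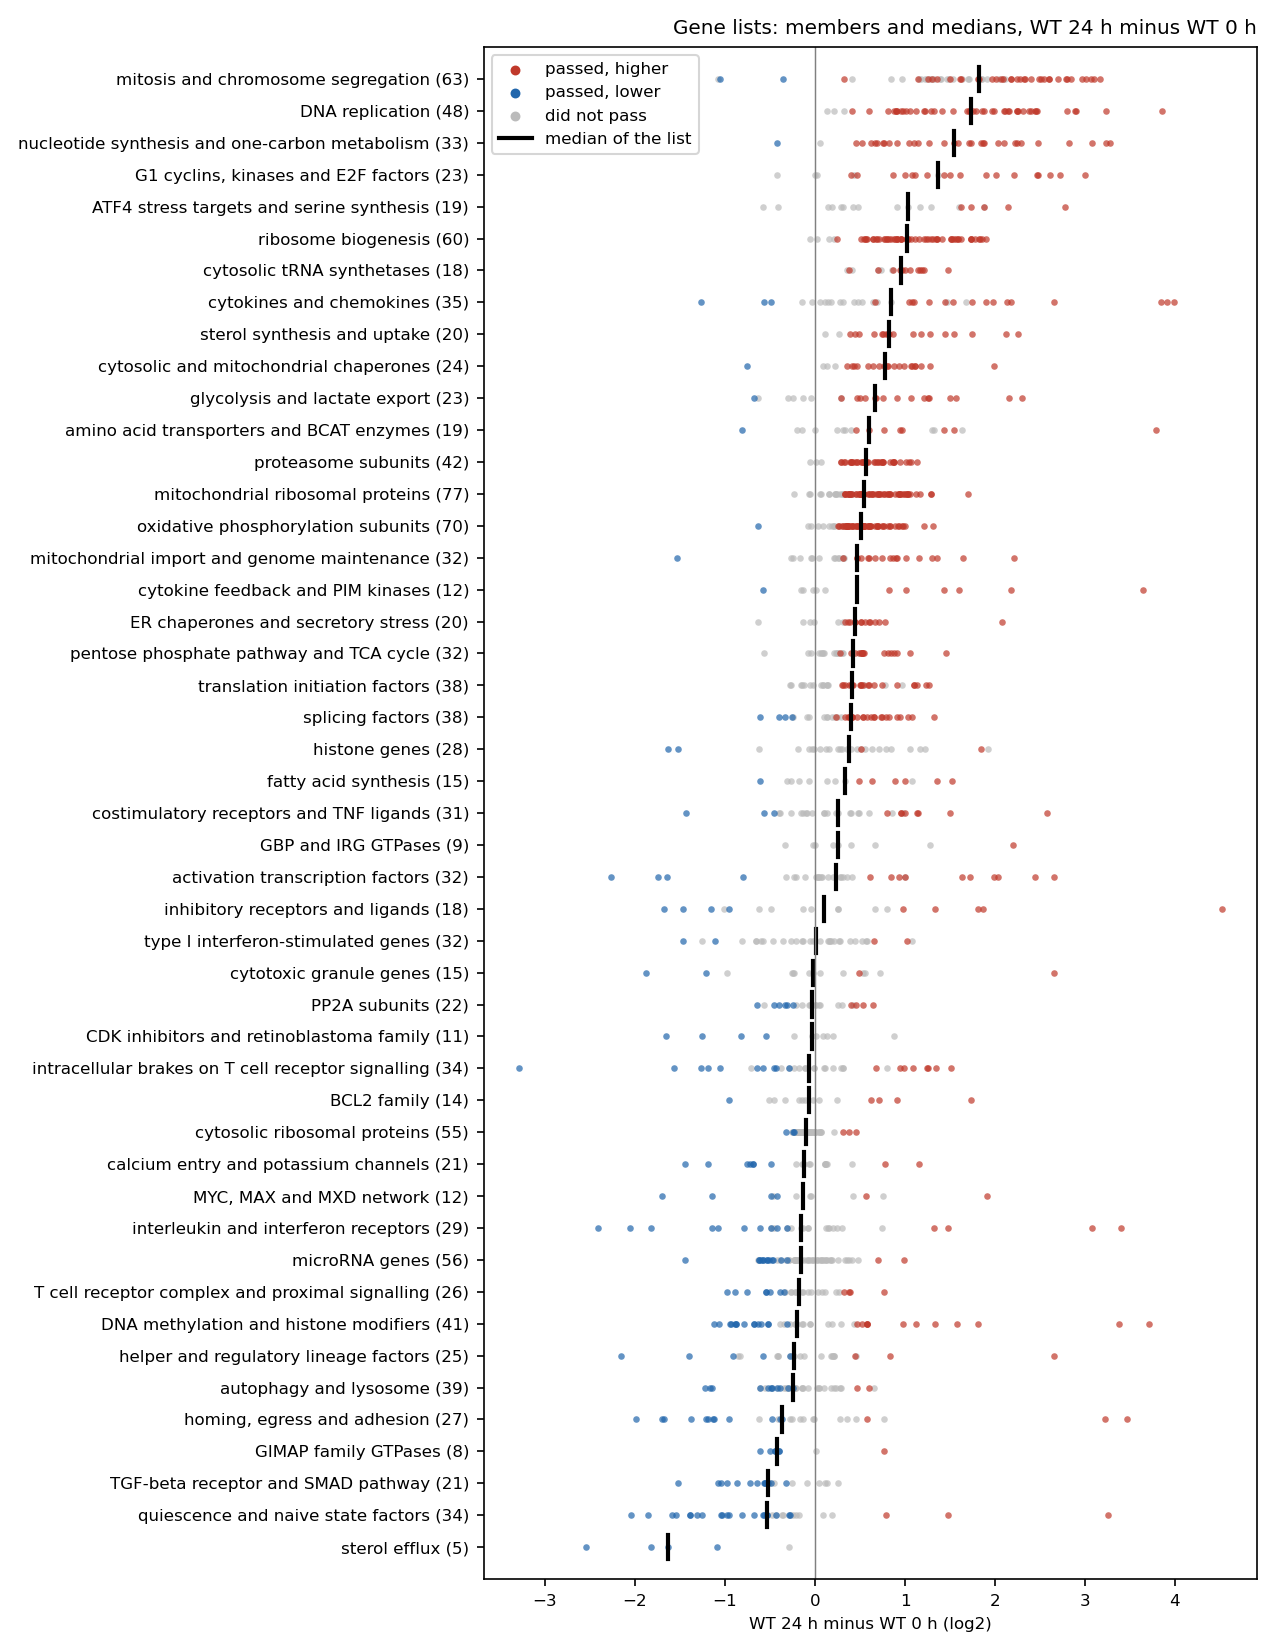
Difference between WT 24 h and WT 0 h (log2, x axis) of each measured member of the 47 pathway lists (y axis, sorted by median, measured members in parentheses). Red and blue points passed as higher or lower, grey points did not pass, and a black bar is the list's median; the medians of mitosis (1.83) and DNA replication (1.74) lie at the top and that of sterol efflux (-1.64) at the bottom.

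Among cell cycle genes, of 23 G1 cyclins, kinases and E2F factors, 18 were higher and 0 lower, with a median of 1.37. Ccnd2, the D-type cyclin induced by mitogens, read 13.78 and 13.97 at 24 h against 12.45 and 12.43 at 0 h, and E2f1, an activator of S phase genes, read 11.54 and 11.26 against 8.74 and 8.62. Ccne2, a cyclin of the entry into S phase, rose by 3.002 ± 0.257. Of 11 CDK inhibitors and retinoblastoma family genes, 0 were higher and 4 lower: Ccng2 fell by 1.65, Cdkn1b by 1.25, Rbl2 by 0.83 and Rb1 by 0.54, the last a call that ended without the 3 WT arrays marked Rep.

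DNA replication had 45 of 48 genes higher, all 48 with a positive difference, and a median of 1.74. Mcm5, of the replicative helicase, read 12.88 and 12.83 at 24 h against 11.05 and 10.90 at 0 h (1.88 ± 0.11, adjusted p = 2.72e-05), and Mcm3 read 11.96 and 11.88 against 9.69 and 9.68. Pole2, of the leading strand polymerase, rose by 2.31 ± 0.13. Chaf1a, the large subunit of the factor that places histones on new DNA, read 10.60 and 10.18 against 7.65 and 7.32 (2.90 ± 0.26), and Clspn, which relays the replication checkpoint to Chek1, read 9.60 and 9.12 against 7.01 and 6.77 (2.47 ± 0.39). Promoters of Chaf1a and Clspn are shown because they had the largest differences among called members with a match to the E2F letters TTTGGCGC, TTTCCCGC, TTTGGCGG or TTTCCCGG on either strand; capitals mark the match. They lie at chr17:56040166-56040465 and chr4:126556730-126557029, both on the plus strand of GRCm38.p6, sequences from RefSeq.
Chaf1a: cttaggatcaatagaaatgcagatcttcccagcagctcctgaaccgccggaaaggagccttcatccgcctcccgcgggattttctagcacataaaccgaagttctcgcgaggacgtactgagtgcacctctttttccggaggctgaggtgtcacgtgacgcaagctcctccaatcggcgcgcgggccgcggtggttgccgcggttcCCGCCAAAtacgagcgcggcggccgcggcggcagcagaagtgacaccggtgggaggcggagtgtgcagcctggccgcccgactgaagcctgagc
Clspn: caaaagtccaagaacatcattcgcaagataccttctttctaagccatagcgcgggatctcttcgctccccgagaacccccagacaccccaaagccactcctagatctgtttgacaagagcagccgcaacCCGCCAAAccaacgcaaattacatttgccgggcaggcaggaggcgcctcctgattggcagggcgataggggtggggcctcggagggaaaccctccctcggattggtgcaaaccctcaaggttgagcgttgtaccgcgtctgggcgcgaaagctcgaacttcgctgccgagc
The match starts 44 bases before the start of Chaf1a and 121 bases before that of Clspn. Such letters were in the windows of 18 of 39 replication genes with a promoter (46.2%), against 3.79% of all genes.

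Mitosis and chromosome segregation had 35 of 63 genes higher, 2 lower and a median of 1.83, with 60 of 63 differences positive. Cenpk, of the inner kinetochore, read 9.21 and 9.04 at 24 h against 6.09 and 6.03 at 0 h, and Kntc1, of the spindle checkpoint complex, read 9.93 and 8.89 against 6.48 and 6.14. Top2a, the topoisomerase that untangles chromosomes, read 12.16 and 11.01 against 9.21 and 8.39. For Kntc1 and Top2a the unmarked array was the higher of each pair. The list's median was 2.26 between the unmarked arrays and 1.48 between those marked Rep, the last below DNA replication (1.61) and nucleotide synthesis (1.63) between the same arrays, and its number higher was 13 without the unmarked WT 24 h array, 15 without the WT 0 h array marked Rep and 18 without the 3 WT arrays marked Rep. Mki67, the proliferation marker, read 12.32 and 10.69 against 10.24 and 9.08 and did not pass (1.85 ± 0.66, adjusted p = 0.068; 0.0082 with the replicate block). The 2 lower calls, Smc4 and Cdc25b, ended without either WT 0 h array or the WT 24 h array marked Rep.

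The promoter of Kntc1 is shown because it had the largest difference among called members holding both the CHR letters TTTGAA and a CCAAT box, elements known from genes of mitosis. It lies at chr5:123749476-123749775 on the plus strand of GRCm38.p6, sequence from RefSeq, with all matches on either strand in capitals.
Kntc1: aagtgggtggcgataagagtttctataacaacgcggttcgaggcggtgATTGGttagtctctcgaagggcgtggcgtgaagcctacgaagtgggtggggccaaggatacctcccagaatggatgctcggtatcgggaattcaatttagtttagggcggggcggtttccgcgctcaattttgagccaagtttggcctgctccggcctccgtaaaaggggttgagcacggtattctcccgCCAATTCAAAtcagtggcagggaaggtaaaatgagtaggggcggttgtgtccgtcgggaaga
Matches start 202, 12 and 8 bases before the start of the gene, and those at 12 and 8 overlap. Both elements were in 31 of 53 mitosis promoters (58.5%), against 7.97% of all genes; CHR alone was in 69.8% against 20.2%, and CCAAT in 71.7% against 41.1%.

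Chromatin genes moved in both directions. Of 41 DNA methylation and histone modifying genes, 12 were higher and 15 lower. Ezh2, the methyltransferase of histone H3 lysine in the polycomb complex, read 13.17 and 13.10 at 24 h against 11.46 and 11.18 at 0 h, and its paralogue Ezh1 read 11.22 and 11.13 against 12.13 and 12.08. The maintenance DNA methyltransferase gene Dnmt1 rose by 1.12 ± 0.12, and the demethylase gene Kdm5b fell by 0.87. Of 28 histone genes, 2 were higher and 2 lower, with 0 to 7 higher when 1 array was left out and 6 with the replicate block; the linker histone gene H1f2 read 10.60 and 9.75 against 11.91 and 11.71. Histone genes are near-identical copies, so their probe sets may read more than 1 gene. Of 14 BCL2 family genes, 4 were higher (2 without the 3 WT arrays marked Rep) and 1, Bmf, lower, a call that ended without the unmarked WT 0 h array or the WT 24 h array marked Rep (3 lower with the replicate block). Bcl2l1, the survival factor BCL-XL, read 10.32 and 10.68 against 8.87 and 8.67.

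Few type I interferon-stimulated genes passed at 24 h: of 32, 2 were higher and 2 lower, with a median of 0.02. Zbp1, a sensor of nucleic acids, read 12.04 and 12.43 against 11.08 and 11.34. Ddx58, the RNA sensor RIG-I, read 11.16 and 10.44 against 11.90 and 11.92 (-1.11 ± 0.34, adjusted p = 0.0389), a call that ended without either WT 0 h array or the WT 24 h array marked Rep. Its promoter is shown because it had the largest difference among called members whose window holds the interferon-stimulated response element on either strand, in capitals; it lies at chr4:40239776-40240075 on the minus strand of GRCm38.p6, sequence from RefSeq.
Ddx58: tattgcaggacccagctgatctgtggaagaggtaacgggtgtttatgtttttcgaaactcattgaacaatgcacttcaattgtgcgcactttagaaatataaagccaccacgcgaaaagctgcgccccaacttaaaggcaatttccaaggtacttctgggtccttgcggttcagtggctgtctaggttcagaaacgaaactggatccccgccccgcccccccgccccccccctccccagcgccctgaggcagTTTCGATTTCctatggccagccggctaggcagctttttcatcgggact
The element was in 11 of 23 promoters of these genes (47.8%), against 3.99% of all genes. Of 9 GBP and IRG GTPases, known interferon gamma targets, 1 was higher and 0 lower; Gbp5 read 10.80 and 12.05 against 8.84 and 9.60. The replicate block gave 3 higher and 1 lower.

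MicroRNA genes were read by probe sets of the precursor or its host transcript, and mature levels were not measured. Of 56, 2 were higher and 13 lower with a median of -0.16, and 53 matched a mature sequence in RefSeq. The group means of 16 lay under 5.81, the lower quartile of every array, at both times. The number lower was 7 without the unmarked WT 24 h array, 6 without the WT 0 h array marked Rep and 2 without the 3 WT arrays marked Rep. Mature sequences are shown for both genes that were higher and for lower ones that share a seed or changed most, with the seed, bases 2 to 8, in capitals.
mmu-miR-155-5p: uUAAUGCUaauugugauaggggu
mmu-miR-363-3p: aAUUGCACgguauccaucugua
mmu-miR-181b-5p: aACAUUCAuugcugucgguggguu
mmu-miR-15b-5p: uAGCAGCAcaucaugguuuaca
mmu-miR-16-5p: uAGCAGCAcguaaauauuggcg
mmu-miR-106b-5p: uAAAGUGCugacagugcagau
mmu-miR-20b-5p: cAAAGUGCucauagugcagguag
On GRCm38.p6 they lie at chr16:84714143-84714165 (plus), chrX:52741697-52741718 (minus), chr1:137966650-137966673 (plus), chr3:69009775-69009796 (plus), chr3:69009918-69009939 (plus), chr5:138165787-138165807 (minus) and chrX:52742159-52742181 (minus) in the order shown. Mir155, whose host transcript is induced in activated lymphocytes, read 8.41 and 9.03 at 24 h against 7.71 and 7.74 at 0 h (0.99 ± 0.26, adjusted p = 0.0198), a call that ended without either WT 0 h array or the WT 24 h array marked Rep. Mir181b-1, whose family tunes antigen receptor sensitivity, read 6.55 and 5.92 against 7.60 and 7.77, the largest decrease of the list (-1.44 ± 0.28). Its family members Mir181a-1 (-0.215) and Mir181a-2 (-0.093), with the same seed ACAUUCA, did not pass. Mir15b and Mir16-2 share the seed AGCAGCA and fell by 0.58 each; Mir106b and Mir20b share AAAGUGC and fell by 0.48 and 0.54. Other genes with these seeds did not pass: Mir15a (0.26) and Mir16-1 (-0.29), which encodes the same mature miR-16-5p, and Mir17 (0.35), Mir106a (0.18), Mir20a (-0.02) and Mir93 (-0.22). The call of Mir106b ended without either Rep array of the pair, and that of Mir20b without either unmarked array. Mir363 and Mir20b are encoded close together on the X chromosome, and Mir363 was higher by 0.69 ± 0.12 at values near the dim end of the arrays (5.21 and 4.93 against 4.36 and 4.39). Mir25 (0.075) and Mir92-2 (0.061), which share the Mir363 seed AUUGCAC, did not pass.

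Which of these changes were already present at 6 h was asked by setting WT 24 h against WT 6 h. In that comparison 3124 of 23410 probe sets (13.3%) passed, 1753 (7.49%) higher and 1371 (5.86%) lower at 24 h. Between WT 6 h and WT 0 h 6209 (26.5%) had passed, 2955 higher and 3254 lower. All of these comparisons share arrays, so their values are only set side by side. Cell cycle genes were among the 10 largest increases after 6 h. Dtl averaged 7.63 at 0 h, 7.76 at 6 h and 11.72 at 24 h, and Orc1 5.75, 6.12 and 9.61. Rrm2, a subunit of ribonucleotide reductase, averaged 9.04, 8.57 and 12.32. Tcf19, a factor of the G1 to S transition, averaged 9.56 at 0 h, 7.91 at 6 h and 11.88 at 24 h, so its value at 6 h was the lowest of the 3 times. DNA replication genes had a median difference from 0 h of 0.06 at 6 h and 1.74 at 24 h, with 45 of 48 higher at 24 h than at 6 h. Mitosis genes had medians of -0.22 and 1.83, with 37 of 63 higher.

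Other lists had most of their difference by 6 h. Ribosome biogenesis had a median of 1.42 at 6 h and 1.02 at 24 h, with 29 of 60 genes lower at 24 h than at 6 h and 0 higher. Grwd1, a nucleolar chaperone, averaged 8.71 at 0 h, 11.13 at 6 h and 10.31 at 24 h. Nucleotide synthesis had medians of 1.02 and 1.55, sterol synthesis 0.90 and 0.82, cytokines 1.22 and 0.85, and quiescence genes -0.67 and -0.53. Oxidative phosphorylation had a median of 0.32 at 6 h and 0.51 at 24 h, with 8 of 70 genes higher at 24 h than at 6 h.

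Some of the genes lower at 24 h than at 6 h had their highest value at 6 h. Cxcl10, an interferon-induced chemokine, averaged 9.16 at 0 h, 12.63 at 6 h and 9.60 at 24 h (24 h minus 6 h -3.03 ± 0.66, adjusted p = 0.0173), though the 2 arrays at 6 h read 13.82 and 11.44. Spry1 averaged 8.93, 12.48 and 10.27, with 12.48 and 12.49 at 6 h. Txnrd3, a thioredoxin reductase, averaged 8.39, 10.79 and 8.59, and Sult2b1, a sterol sulfotransferase, 7.97, 9.96 and 8.14. Mir155 averaged 7.72, 10.30 and 8.72. Interferon-stimulated genes had a median of 0.80 at 6 h and 0.02 at 24 h, yet 1 of 32 was higher and 3 were lower at 24 h than at 6 h. Nr4a2 and Ramp3 were lower at 24 h than at both earlier times; Nr4a2 averaged 11.46, 11.48 and 9.19.

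**Figure D4:**
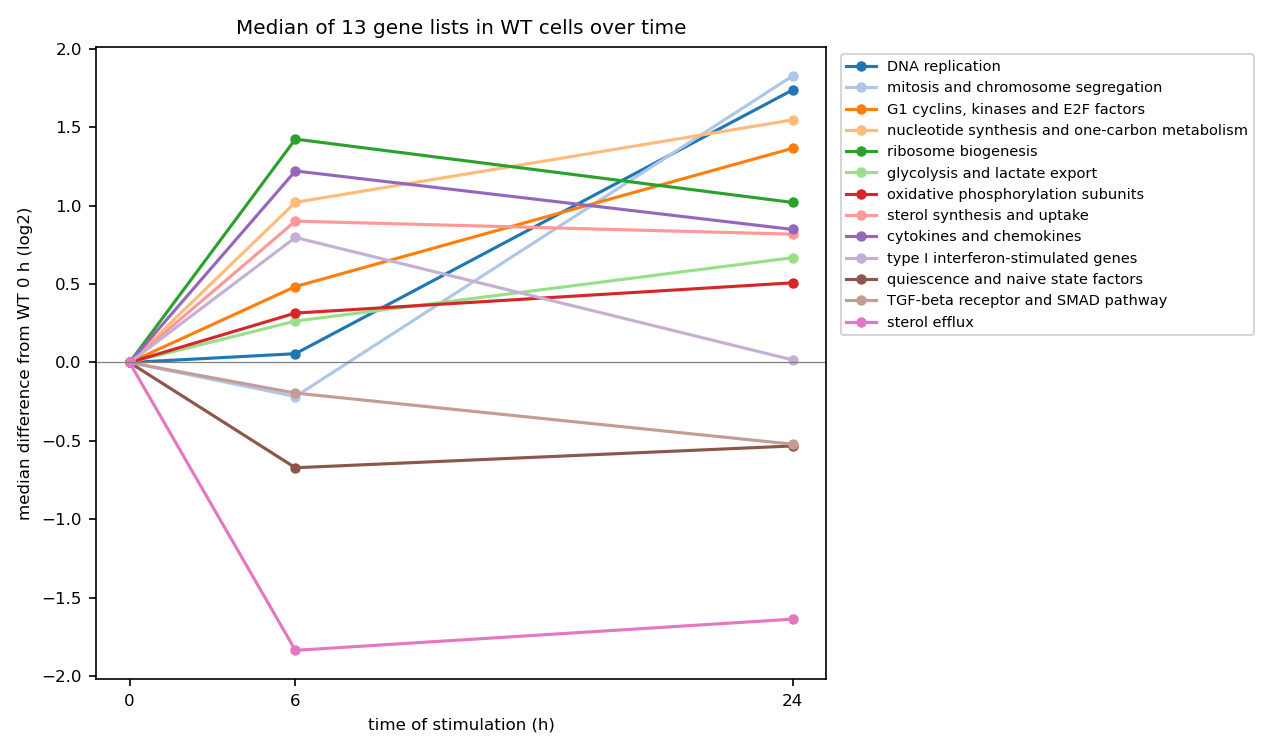
Median difference from WT 0 h (log2, y axis) of 13 gene lists in WT cells at 0, 6 and 24 h of stimulation (x axis); each line is a list and 0 h is 0 by construction. DNA replication and mitosis are near 0 at 6 h (0.06 and -0.22) and at 1.74 and 1.83 at 24 h, whereas ribosome biogenesis is at 1.42 and 1.02.

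Whether the response was particular to WT cells was tested as the difference between the WT response and the response of PP2Ac transgenic cells. Of 23410 probe sets 0 (0%) passed in limma. The replicate block also gave 0. An unadjusted p under 0.05 was found for 625, a smaller share than the 0.05 that arises where no response differs. The main fit left out the pairing by the mark, so this share does not show that the responses were alike. No gene of the WT response was thus shown to depend on genotype at this number of arrays. In transgenic cells 5569 probe sets (23.8%) passed between 24 h and 0 h, 2801 higher and 2768 lower. The genotypes share no arrays. Over probe sets, which are not independent replicates, the 2 responses correlated with r = 0.934 (n = 23410), and 6145 of the 6245 that passed in WT (98.4%) had the same sign in transgenic cells, as did 69.2% of those that did not pass. Lag3 was higher by 4.52 in WT and 4.77 in transgenic cells, Chek1 by 4.41 and 4.13, and Rgs2 differed by -3.29 and -3.53. List medians in WT and transgenic cells were 1.74 and 1.67 for DNA replication, 1.83 and 1.52 for mitosis, 1.02 and 0.85 for ribosome biogenesis and -0.53 and -0.44 for quiescence genes. The 5 probe sets with the largest statistic for the difference between responses were in Nova1 (-0.02 in WT, -1.52 in transgenic cells), Il17a (0.05 and 1.14), Tas2r119 (-0.31 and 0.24), Sult1c2 (-0.31 and 0.27) and Dpep2 (0.10 and -0.63), and none of them passed.

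**Figure D5:**
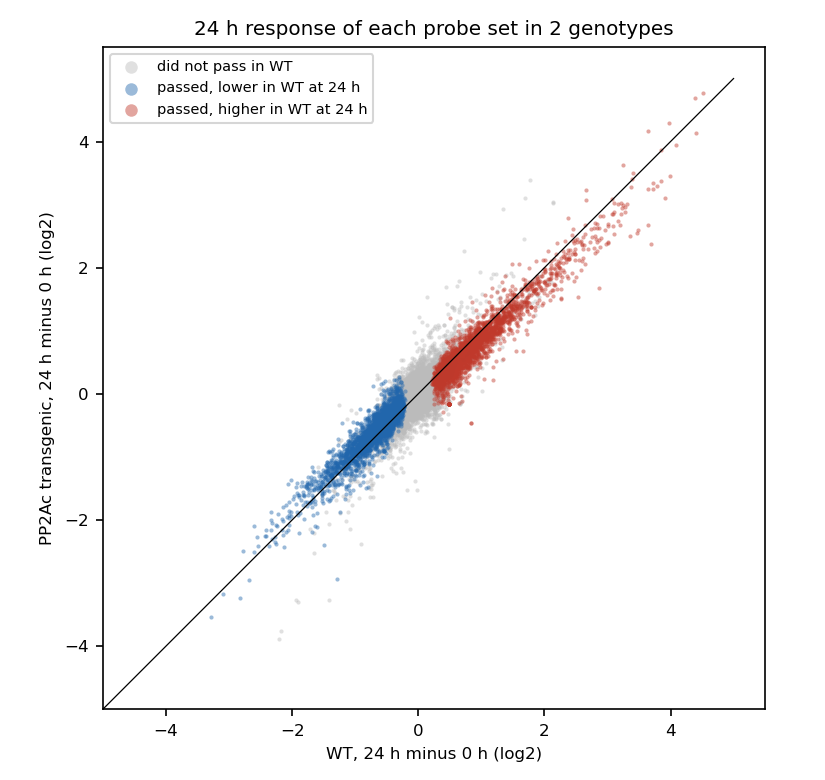
Difference between 24 h and 0 h (log2) of each of 23410 probe sets in WT cells (x axis) and in PP2Ac transgenic cells (y axis); red and blue points passed as higher or lower in WT, grey points did not pass, and the line marks equal responses. Points lie along the line (r = 0.934), with Lag3 at 4.52 in WT and 4.77 in transgenic cells.

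Markers of the naive and other cell types moved as follows between WT 24 h and WT 0 h. Naive T cell markers had 1 of 8 higher, Igfbp4, and 4 lower. Antigen-experienced T cell markers had 1 of 11 higher, Il2rb, and 5 lower (3 without the WT 24 h array marked Rep or without the unmarked WT 0 h array); Ccl5 and Cxcr6 were among the 5. NK cell markers had 4 of 10 lower, dendritic cell markers 4 of 11 and platelet markers 3 of 6, with 0 higher in each. Their mean levels at 24 h and 0 h were 7.76 and 7.69 against 8.28 and 8.93 for NK cells, and 7.74 and 7.79 against 7.99 and 8.23 for dendritic cells. The number of NK cell markers lower was 6 without the unmarked WT 0 h array, 2 without the WT 24 h array marked Rep and 1 without either other array. The number of dendritic cell markers lower was 2 without the unmarked WT 24 h array or the WT 0 h array marked Rep, and that of platelet markers was 1 without either WT 0 h array or the WT 24 h array marked Rep. B cell markers had 1 of 15 higher, H2-Ab1, and 2 lower, at mean levels of 11.10 and 10.56 against 10.94 and 10.99. The call of H2-Ab1 ended without either unmarked array, and the 2 lower became 0 without the unmarked WT 0 h array or the WT 24 h array marked Rep. Of 17 monocyte markers 1 was lower, Ms4a6c, and of 6 erythroid markers 1, Slc4a1; both calls ended without the unmarked WT 0 h array or the WT 24 h array marked Rep, and that of Slc4a1 also without the unmarked WT 24 h array. Of 17 neutrophil markers 0 passed, all 17 had a negative difference and the median was -0.85; CD8 T cell markers had 0 of 2. With the replicate block 1 CD8 T cell, 1 dendritic cell and 1 NK cell marker were higher. The part of these cells in the decreases of Klrd1, Cd209a and Ccl5 was not tested.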

How the data were processed

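RNA was measured on 12 one-colour arrays of 6 groups, 2 arrays each. Values are on the log2 scale and were deposited by the authors as 1 table for the whole series, with values from 3.49 to 15.38; the background correction and normalisation behind them are not given in the sources used here. Array medians of the deposited log2 values spread by 0.11, above the limit of 0.1 set for the choice of scaling, so the arrays were quantile normalised. No read depth applies to arrays, and precision is limited by how few arrays there are.

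Of 28853 probe sets, 21789 carried 1 gene symbol, 1621 several and 5443 none in the platform annotation; symbols were updated by Entrez identifier, and 105 symbols were not found. The 23410 with a symbol were fitted over all 12 arrays with limma 3.58.1 in R 4.3.3 (lmFit, eBayes; 6 residual and 3.05 prior degrees of freedom), with Benjamini-Hochberg adjustment over all of them and a threshold of 0.05. Other steps used Python 3.11.15. Gene lists took the probe set of the highest mean per gene. On simulated data for WT 24 h against WT 0 h with 200 of 23410 probe sets changed, 35.8%, 88.1% and 95.5% of changes of 0.5, 1 and 2 on the log2 scale were recovered, and 11 of 157 calls were false. The simulated noise was independent between arrays, and far fewer probe sets changed than were called in the real data. These shares therefore need not hold for the real comparison.

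Named genes were the 20 largest differences each way with groups that do not overlap, the members of smallest p in each list with called members of the opposite direction, a fixed set of T cell genes, the 10 largest differences each way between WT 24 h and WT 6 h, and the most abundant markers. Chaf1a, Clspn, Kntc1, Tsr1 and Ddx58 came from the promoter search, and the microRNA sequences printed were picked after the values were seen. The members and lists were chosen with earlier results of these data known. Whether the mark Rep pairs the arrays was checked by correlating deviations from group means between groups. All 15 correlations were positive, 0.138 to 0.591, and 0.563 between WT 0 h and WT 24 h. The main fit still had no term for the mark, so its SEs and calls leave this pairing out. Blocking on the mark was an alternative fit, the replicate block, which called 7318 probe sets against 6245. Other alternatives were the scaling, the dim filter, the moderation, array weights, the compared groups alone, a minimum of 2-fold and each array left out. The fit without the 3 WT arrays marked Rep was added after the data were seen.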

Additional observations from a re-analysis of the deposited data

Results flagged for a closer look

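Probe sets with no gene symbol were outside all comparisons above. Fitted with the whole table, 402 of 5443 (7.39%) were higher and 421 (7.73%) lower at WT 24 h than at WT 0 h by limma at an adjusted p under 0.05. Probe set 10474902 read 11.23 and 10.63 at 24 h against 7.47 and 7.58 at 0 h, a difference of 3.41 ± 0.32 (adjusted p = 0.00016). Probe set 10403006 read 7.93 and 6.82 against 10.21 and 9.61. Their genes are not named here. With 2 arrays per group, single arrays were not tested as outliers.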

How the results depend on the processing

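The numbers of probe sets that passed depended on the arrays used and, for those lower, also on the scaling. With the compared groups only, 2265 were higher and 2311 lower between WT 24 h and WT 0 h. Median centring gave 3054 higher and 2419 lower. Which direction held more calls thus depended on the scaling. Between WT 24 h and WT 0 h, 3015 were higher, or 2138 to 2656 with 1 array left out, and 3230 were lower, or 1941 to 2520. A tested minimum of 2-fold left 133 and 26, and the fit without the 3 WT arrays marked Rep 1591 and 1279. No shared call changed sign in any setting. Increases made up 48.3% of calls, 55.8% with median centring and 83.6% with the minimum of 2-fold. Between WT 24 h and WT 6 h, 1753 were higher, or 867 to 1493 with 1 array left out, 587 with the compared groups only, 22 at 2-fold and 881 without the Rep arrays. The 1371 lower became 418 to 1109 with 1 array left out, 861 with median centring, 171 with the compared groups only, 3 at 2-fold, 513 without the Rep arrays and 2059 with the replicate block. The replicate block called 7318 between WT 24 h and WT 0 h, 6238 of them among the 6245; of 484 named gene results it added 25 calls and ended 0.

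Directions reversed in few cases. Counted were genes that passed in the main or the changed fit, and list medians at least as large as the spread between the marks. With 1 array left out, Ppbp ranged from -1.17 to 1.12, and it was at 1.19 without the 3 WT arrays marked Rep. The median of the brakes list was 0.02 with median centring. With 1 array left out, the median of monocyte markers ranged from -1.08 to 0.45, that of neutrophil markers from -2.68 to 0.85 and that of GBP and IRG genes from -0.15 to 0.66. The upper ends and the other reversals came without the unmarked WT 0 h array (0.26, 0.85 and -0.05 in that order) or without the WT 24 h array marked Rep (0.45, 0.73 and -0.15), except that 0.66 came without the unmarked WT 24 h array. Without the 3 WT arrays marked Rep the monocyte and neutrophil medians were -0.35 and -0.91. Other list medians, not counted as reversals, also changed sign with 1 array left out. Among them, inhibitory receptors (0.10), type I interferon-stimulated genes (0.02) and B cell markers (-0.05) reached -0.03, -0.18 and 0.23. Cytotoxic granule genes (-0.02), CDK inhibitors (-0.04) and erythroid markers (-0.25) reached 0.04, 0.01 and 0.06. The replicate block also gave 1 lower member in the lists of mitochondrial ribosomal proteins, initiation factors and ER chaperones, against 0, 2 against 1 in glycolysis, and 1 higher against 0 in the TGF-beta list. The cause was not tested.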
